A study of Mus musculus with 16 samples.

Results

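The extracellular matrix of the hippocampus was followed through 10 genes: the lectican proteoglycans aggrecan (*Acan*), brevican (*Bcan*), neurocan (*Ncan*) and versican (*Vcan*), the hyaluronan link proteins *Hapln1*, *Hapln2* and *Hapln4*, the tenascins *Tnc* and *Tnr*, and the receptor phosphatase *Ptprz1*. A probe was counted for a gene when its symbol, or an older symbol of the same gene, was on this list. Of 25697 probes on the array, 17 probes met this rule, and they covered 9 of the 10 genes (the array names 17567 genes in all), since no probe was found for *Ptprz1*. *Tnc* had 6 probes, *Bcan* had 3, *Acan* had 2, and each of the other genes had 1.

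The RNA came from the hippocampus of 16 mice, and Illumina beadchips took 1 mouse on each array. There were 4 mice in each of 4 groups: wild type (WT) littermates and *Mef2c*-het mice, at postnatal day 1 (P1) and at postnatal day 30 (P30). *Mef2c*-het mice, labelled KO in the sample names, carry 1 conventional *Mef2c* allele lacking exon 2 in every cell of the body and 1 intact allele. Both genotypes were on the C57BL/6J background, and no group received a treatment. MEF2C is a transcription factor that is abundant in forebrain neurons. The labels give neither litter, sex nor chip, so the p-values measure the spread between the mice as sampled.

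In brain, lecticans bind the long polysaccharide hyaluronan at their N-terminal end, link proteins clamp that contact, and tenascins join the C-terminal ends of several lecticans, so that a cross-linked mesh forms in the extracellular space. The newborn brain is known for a loose matrix with much neurocan and tenascin-C, and the adult brain for a dense matrix with brevican, aggrecan and tenascin-R. The dense form is condensed as perineuronal nets around some neurons, above all parvalbumin interneurons, and is also found at the nodes of myelinated axons. The array measures transcript levels only and holds no measure of the nets themselves.

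The upstream sequence of *Bcan*, of *Ncan* and of *Tnc* is shown here because *Ncan* and *Tnc* fell together between the ages while *Bcan*, which encodes a lectican like *Ncan*, rose. Each is the 250 bases before a RefSeq gene start on the strand of the gene, on the mouse build GRCm38.p6. Capitals mark TATAAA, the core of a TATA box, and GGGCGG, the core of a GC box, read on either strand.
Bcan (chr3:88000357-88000606, minus strand): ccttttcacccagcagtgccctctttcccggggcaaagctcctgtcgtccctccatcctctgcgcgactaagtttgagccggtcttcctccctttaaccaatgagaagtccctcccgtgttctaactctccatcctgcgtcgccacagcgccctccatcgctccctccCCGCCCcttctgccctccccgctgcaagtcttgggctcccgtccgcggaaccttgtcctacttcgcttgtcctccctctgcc
Ncan (chr8:70120845-70121094, minus strand): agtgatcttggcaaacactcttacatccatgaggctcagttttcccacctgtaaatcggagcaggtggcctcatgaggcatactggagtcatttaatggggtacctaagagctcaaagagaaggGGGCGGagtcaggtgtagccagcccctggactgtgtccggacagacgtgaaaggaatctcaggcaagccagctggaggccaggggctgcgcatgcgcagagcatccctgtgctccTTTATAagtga
Tnc (chr4:64047016-64047265, minus strand, the first of its listed starts): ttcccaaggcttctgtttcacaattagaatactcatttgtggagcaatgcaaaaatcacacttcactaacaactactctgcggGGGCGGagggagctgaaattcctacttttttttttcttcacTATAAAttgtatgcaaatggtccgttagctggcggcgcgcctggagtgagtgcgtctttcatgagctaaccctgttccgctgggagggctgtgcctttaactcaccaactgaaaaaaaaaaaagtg

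TATAAA was found in *Ncan*, 11 bases before the start on the opposite strand, and in *Tnc*, 126 bases before the start shown. The *Bcan* window held GGGCGG and no TATAAA. Of the 9 genes of the list with a window, 2 held TATAAA and 6 held GGGCGG, against 12.4% and 32.7% of 32851 windows of all genes. The consensus bound by MEF2 factors was in 0 of the 9 and in 2.92% of all windows. A gene was counted when any of its windows held the motif, whereas the shares are of single windows. The 6 genes with GGGCGG include *Ptprz1*, which has no probe. The genes shown were picked by the direction of their age change, and a link of motif and direction was not tested. These matches describe letters in a window and no binding was measured. *Hapln4* was not among the windows.

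The genes of the link proteins lie beside those of the lecticans. *Hapln1* and *Vcan* are neighbours on chromosome 13, *Hapln2* and *Bcan* on chromosome 3, and *Hapln4* and *Ncan* on chromosome 8, each with 0 protein-coding genes in between. The targeted gene *Mef2c* is on chromosome 13 as well, with 5 protein-coding genes between it and *Hapln1*. Whether this bears on the genotype comparison of *Hapln1* was not tested.

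Signals are given as log2 of the quantile-normalized bead intensity. The lowest signal that was called detected lay between 7.27 and 7.38 on the 16 arrays. Values near or below this range give only an upper bound on the signal of that probe. They do not show that the transcript was low, since a probe can also fail to report it. *Bcan* probe ILMN_2995619 and *Tnc* probes ILMN_1251943 and ILMN_2454497 were detected on no array, although other probes of these genes were detected on all 16. Of the 17 probes, 5 were detected on all 16 arrays, namely 2 probes of *Bcan*, 1 of *Ncan* and 2 of *Tnc*. Another 5 were detected on no array, and the *Tnr* probe was detected on 1 array. The 11 probes detected on at least 4 arrays entered the tests, and they belong to 7 genes. Of these 11, the probes of *Hapln2* and *Hapln4* and 2 dimmer *Tnc* probes passed through 1 age alone or nearly so, which made a difference between ages likely for them from the start. Signals of different probes are not compared with each other, because each probe has its own brightness. The RNA is from whole tissue, in which fewer cells of a type and less RNA per cell cannot be told apart.

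**Figure D1:**
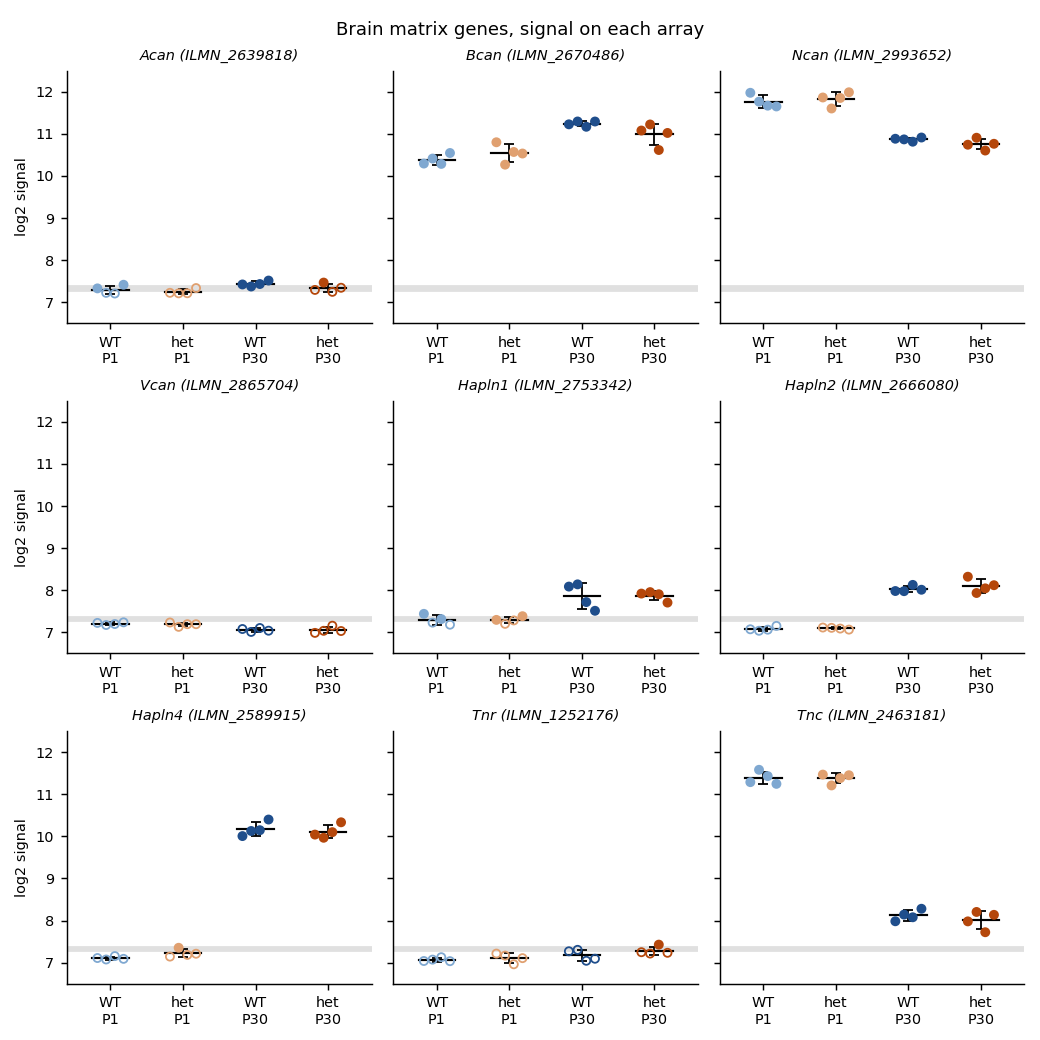
Signal of the brightest probe of each of the 9 measured genes on the 16 arrays (y axis, log2 normalized intensity), by genotype and age (x axis). Filled points were detected and open points were not, the grey band is the range over arrays of the lowest detected signal (7.27 to 7.38), and lines and bars are the mean and SD of 4 mice. *Bcan*, *Hapln1*, *Hapln2* and *Hapln4* are higher at P30, *Ncan* and *Tnc* are lower, and *Acan*, *Vcan* and *Tnr* lie on or near the band.

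Between P1 and P30 the matrix genes of WT mice changed in both directions. Brevican and all of the link proteins measured rose, *Bcan* by 1.82-fold and 1.49-fold on its 2 detected probes and *Hapln4* at least 7.22-fold, and neurocan and tenascin-C fell, by 1.86-fold and 9.61-fold. In all, 10 of the 11 tested probes passed the test (limma, adjusted p under 0.05), 5 higher and 5 lower at P30. This share has to be read against the rest of the array, since 59.7% of all 14777 tested probes passed in the same comparison, 28% higher and 31.7% lower. The 4 WT P1 arrays and the 4 WT P30 arrays did not overlap for 10 of the 11 probes, as was the case for 53.1% of all tested probes. In *Mef2c*-het mice 10 of the 11 probes passed as well, again 5 higher and 5 lower, beside 58.3% of all probes, 26.9% higher and 31.4% lower. There the 2 ages did not overlap for 9 of the 11 probes, beside 52.5% of all probes. All of these counts include the probes of *Hapln2* and *Hapln4* and 2 dimmer *Tnc* probes. These entered the tests through 1 age alone or nearly so, so their calls were likely from the start. Of the 5 probes that fell, 4 were of *Tnc*. By 1 probe per gene, 4 of 7 tested genes rose and 2 fell in each genotype. Of all genes, 29.1% rose and 32.8% fell in WT, and 27.9% and 33% in *Mef2c*-het mice.

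Brevican, a lectican made largely by astrocytes and oligodendrocyte precursors, rose with age on both of its detected probes. On probe ILMN_2670486 the 4 WT P1 arrays read 10.29, 10.41, 10.29 and 10.54, and the 4 WT P30 arrays read 11.22, 11.29, 11.17 and 11.29. The 4 *Mef2c*-het P1 arrays read 10.80, 10.27, 10.57 and 10.53, and the 4 *Mef2c*-het P30 arrays read 11.08, 11.22, 10.61 and 11.02. In WT the ages were well apart, whereas in *Mef2c*-het mice replicate 6 at P30 fell among the P1 arrays. The log2 change was 0.86 in WT (SE 0.12, limma adjusted p = 1.03e-05) and 0.44 in *Mef2c*-het mice (SE 0.12, limma adjusted p = 0.00456).

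On the other *Bcan* probe, ILMN_2636745, the WT arrays ranged from 8.87 to 9.25 at P1 and from 9.45 to 9.72 at P30. The *Mef2c*-het arrays ranged from 8.76 to 9.09 and from 9.34 to 9.61. Here the ages were apart in both genotypes, with log2 changes of 0.58 in WT (SE 0.097, limma adjusted p = 7.86e-05) and 0.53 in *Mef2c*-het mice (SE 0.097, limma adjusted p = 0.00018). The third *Bcan* probe was detected on no array.

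Neurocan, a lectican of the newborn brain made by neurons and astrocytes, fell in both genotypes. Probe ILMN_2993652 read 11.97, 11.76, 11.67 and 11.65 on the WT P1 arrays and 10.88, 10.87, 10.81 and 10.91 on the WT P30 arrays. It read 11.86, 11.60, 11.85 and 11.99 on the *Mef2c*-het P1 arrays and 10.74, 10.91, 10.60 and 10.76 on the *Mef2c*-het P30 arrays. Every P30 array was below every P1 array. The log2 change was -0.90 in WT (SE 0.089, limma adjusted p = 2.02e-07) and -1.07 in *Mef2c*-het mice (SE 0.089, limma adjusted p = 2.39e-08), a fall of 1.86-fold and 2.10-fold.

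Since *Bcan* rose and *Ncan* fell, the ratio of these 2 lectican transcripts on an array differed between the mice of P1 and those of P30. The log2 signal of *Bcan* probe ILMN_2670486 minus that of *Ncan* ranged from -1.68 to -1.11 on the WT P1 arrays and from 0.34 to 0.43 on the WT P30 arrays. It ranged from -1.45 to -1.06 and from 0.01 to 0.34 in *Mef2c*-het mice. The zero point of this difference has no meaning, because the probes differ in brightness, but its group mean was higher at P30 by 1.76 in WT and by 1.51 in *Mef2c*-het mice, and the ages did not overlap in either genotype.

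Aggrecan, the lectican that marks perineuronal nets, was close to the detection limit. Probe ILMN_2639818 was detected on 2 of the 8 P1 arrays and 5 of the 8 P30 arrays. It read 7.33, 7.22, 7.21 and 7.42 on the WT P1 arrays and 7.42, 7.37, 7.43 and 7.51 on the WT P30 arrays, so the ages overlapped. The log2 difference of P30 from P1 was 0.14 in WT (SE 0.064, limma adjusted p = 0.0655) and 0.09 in *Mef2c*-het mice (limma adjusted p = 0.239), neither of which passed the test. The WT value did pass after normexp background correction (0.48, adjusted p = 0.0325), with trended and robust variances (adjusted p = 0.0481) and without WT P1 replicate 8 (adjusted p = 0.0247). The other *Acan* probe was detected on no array. Versican, a large lectican of the newborn brain and of myelinated tracts, has 1 probe on the array, which was detected on no array and read 6.99 to 7.24, so no change of *Vcan* can be read from these data.

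**Figure D2:**
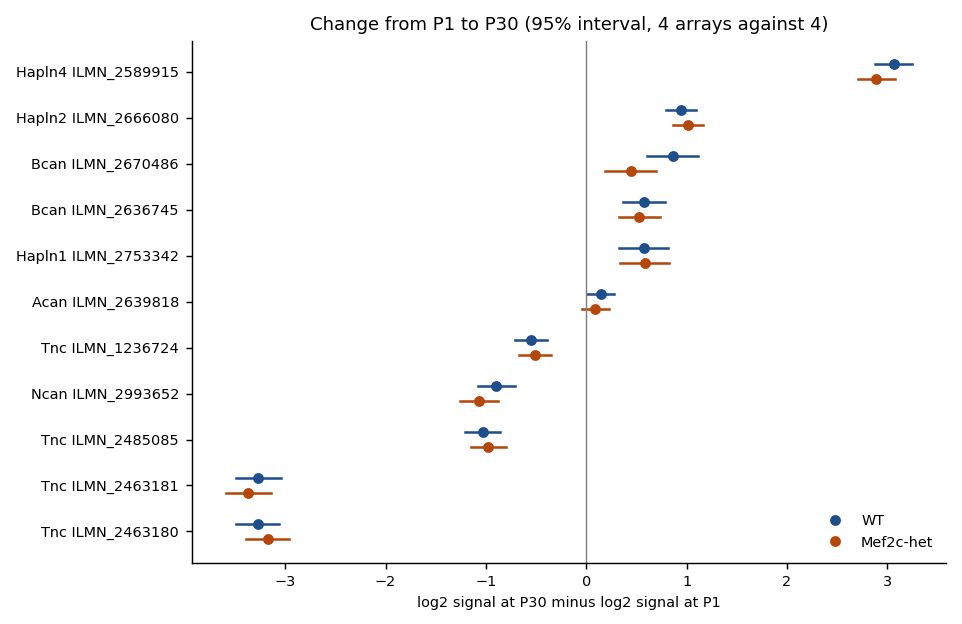
Log2 change from P1 to P30 (x axis) of the 11 tested probes (y axis) in WT and in *Mef2c*-het mice, with 95% confidence intervals from limma. In both genotypes *Bcan*, *Hapln1*, *Hapln2* and *Hapln4* lie to the right of 0 and *Ncan* and *Tnc* to the left, from -3.27 for *Tnc* to 3.06 for *Hapln4* in WT.

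The link protein *Hapln4*, a component of perineuronal nets, rose from background. Its probe ILMN_2589915 read 7.11, 7.07, 7.16 and 7.09 on the WT P1 arrays and 10.01, 10.13, 10.14 and 10.40 on the WT P30 arrays. It read 7.14, 7.35, 7.18 and 7.21 on the *Mef2c*-het P1 arrays and 10.04, 9.97, 10.10 and 10.33 on the *Mef2c*-het P30 arrays. *Hapln4* was thus at background on every WT P1 array and well measured on all 8 P30 arrays, where the genotypes overlapped. The log2 change was 3.06 in WT (SE 0.087, limma adjusted p = 5.92e-14) and 2.89 in *Mef2c*-het mice (limma adjusted p = 1.23e-13). As the WT P1 signal is only an upper bound, this amounts to at least 7.22-fold higher in WT, the mean P30 signal being set against the lowest detected signal of each P1 array or the probe's own, whichever was higher. In *Mef2c*-het mice 1 of the 4 P1 arrays detected the probe, so the size of that change is not fixed by these signals either. After normexp background correction the log2 changes were 5.34 and 4.96.

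*Hapln2*, a link protein of the nodes of Ranvier that is made by oligodendrocytes, rose from background as well. The sizes of the rises of the link proteins cannot be ranked, because each started at or near background. Probe ILMN_2666080 read 7.07, 7.04, 7.07 and 7.16 on the WT P1 arrays, where it was not detected, and 7.98, 7.98, 8.13 and 8.01 on the WT P30 arrays. It read 7.12, 7.11, 7.09 and 7.07 on the *Mef2c*-het P1 arrays and 8.32, 7.94, 8.05 and 8.12 on the *Mef2c*-het P30 arrays. All P30 arrays were above all P1 arrays. The transcript was at least 1.64-fold higher at P30 in WT (log2 change 0.94, SE 0.070, limma adjusted p = 5.98e-09) and at least 1.73-fold higher in *Mef2c*-het mice (log2 change 1.01, limma adjusted p = 2.73e-09).

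*Hapln1*, the link protein first known from cartilage and also made by neurons, rose too. Probe ILMN_2753342 read 7.44, 7.23, 7.32 and 7.18 on the WT P1 arrays and 8.09, 8.14, 7.72 and 7.51 on the WT P30 arrays. It read 7.30, 7.20, 7.29 and 7.39 on the *Mef2c*-het P1 arrays and 7.92, 7.96, 7.91 and 7.71 on the *Mef2c*-het P30 arrays. The ages did not overlap in either genotype, but WT replicate 7 at P30 was close to the P1 arrays. The log2 change was 0.57 in WT (SE 0.11, limma adjusted p = 0.000394) and 0.58 in *Mef2c*-het mice (limma adjusted p = 0.000356). The probe was detected on 4 of the 8 P1 arrays, 2 of them WT, and after normexp background correction the log2 changes were 1.53 and 1.61, so their size depends on how background is treated. In WT the change was 0.78 among the arrays of lower background and 0.43 among those of higher background.

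Tenascin-C, a glycoprotein of progenitor zones and immature astrocytes, showed the largest fall on the list. Its brightest probe, ILMN_2463181, read 11.29, 11.58, 11.43 and 11.25 on the WT P1 arrays and 7.98, 8.14, 8.08 and 8.28 on the WT P30 arrays. It read 11.47, 11.21, 11.38 and 11.45 on the *Mef2c*-het P1 arrays and 7.98, 8.20, 7.72 and 8.14 on the *Mef2c*-het P30 arrays. *Tnc* remained detected on all 8 P30 arrays. The log2 change was -3.27 in WT (SE 0.10, limma adjusted p = 2.46e-13), which is 9.61-fold lower, and -3.37 in *Mef2c*-het mice (SE 0.10, limma adjusted p = 1.82e-13), which is 10.3-fold lower. At P30 the signal was near background, and after normexp background correction the log2 changes were -4.04 and -4.25.

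A second bright *Tnc* probe, ILMN_2463180, gave log2 changes of -3.27 in WT and -3.17 in *Mef2c*-het mice. Probes ILMN_2485085 and ILMN_1236724 were detected on all 8 P1 arrays and on 0 of the 8 P30 arrays. For ILMN_2485085 the transcript was at least 1.69-fold lower at P30 in WT and at least 1.70-fold lower in *Mef2c*-het mice, and for ILMN_1236724 it was at least 1.35-fold and at least 1.32-fold lower. The 4 tested *Tnc* probes therefore fell in both genotypes, and their sizes cannot be ranked, since the dimmer ones reached background. The remaining 2 *Tnc* probes were detected on no array.

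Tenascin-R, which oligodendrocytes and some interneurons add to the mature matrix, had 1 probe, ILMN_1252176, with signals of 6.96 to 7.43. It was detected on the array of *Mef2c*-het P30 replicate 6 alone and was not tested.

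**Figure D3:**
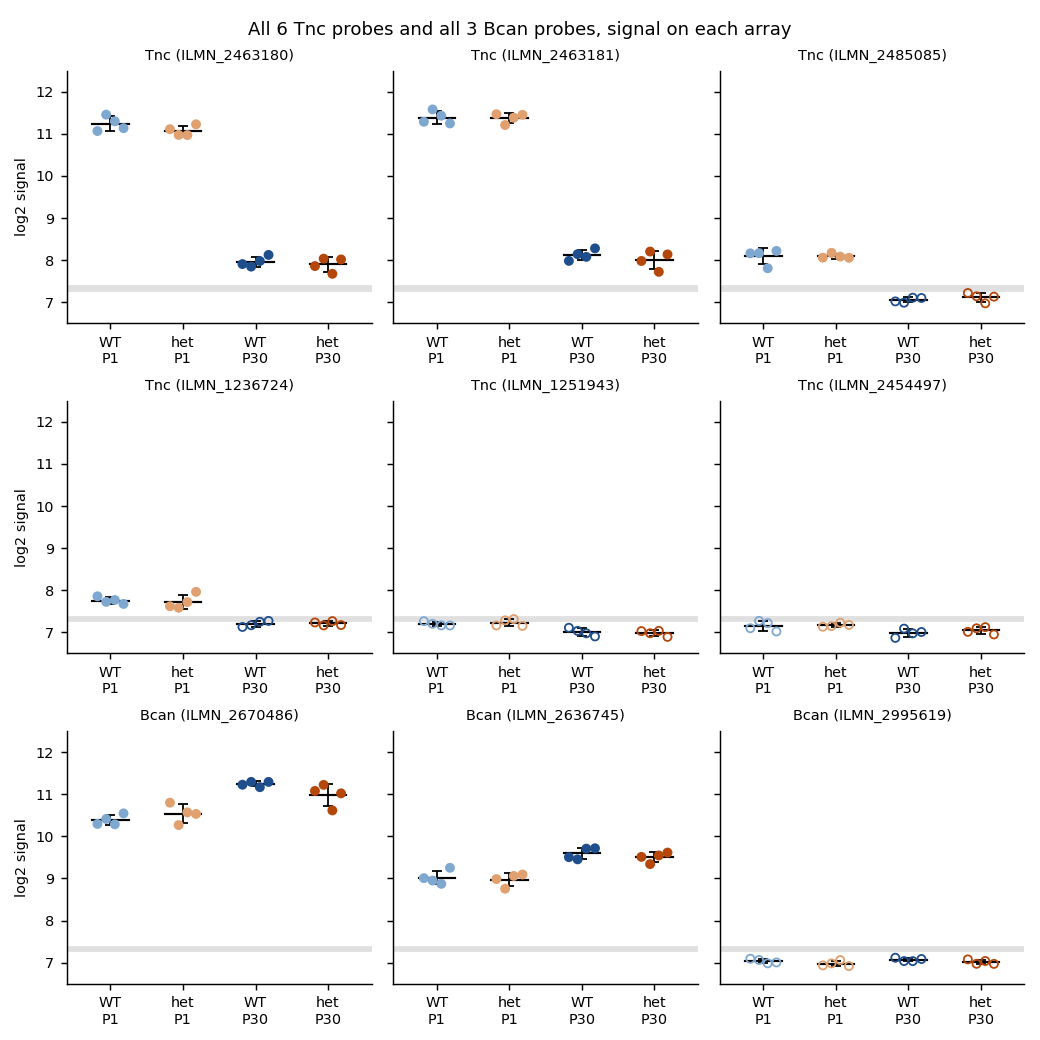
Signal of each of the 6 *Tnc* and 3 *Bcan* probes (y axis, log2 normalized intensity) on the 16 arrays by genotype and age (x axis), with filled points detected and open points not detected. The probes ILMN_2463180 and ILMN_2463181 are detected at both ages and fall in both genotypes, 2 others reach background at P30, and the remaining 2 stay at background at both ages.

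Markers of several cell types changed in the same comparison, and their part in the changes above was not tested. Of 9 tested oligodendrocyte markers, 9 rose in WT, with a median log2 change of 4.98. The summed intensity of all 10 markers with a probe, tested or not, went from 2295–2808 on the WT P1 arrays to 97216–106939 on the WT P30 arrays. *Mog*, *Mobp* and *Opalin* were detected on no P1 array. This is the list nearest to *Hapln2*. Of 8 tested markers of radial glia and proliferating cells, 8 fell in WT, with a median of -2.11. Summed intensities over the 9 with a probe were 7070–9688 at P1 and 1769–1879 at P30. These markers moved with *Tnc*. Of 7 tested interneuron markers, 7 rose in WT, with a median of 1.27. Summed intensities over the 9 with a probe were 11566–12765 at P1 and 27525–34176 at P30. *Pvalb* was detected on no WT P1 array and was at least 30.4-fold higher at P30. Of 10 astrocyte markers, 8 rose and 1 fell in WT, and of 5 markers of oligodendrocyte precursors 4 rose (median 0.44), which are the lists nearest to *Bcan*. In *Mef2c*-het mice 8 astrocyte markers rose and 1 fell, and 2 of the 5 precursor markers rose (median 0.18). The median difference of the change in *Mef2c*-het mice from that in WT was -0.24 for the precursor markers and -0.05 for astrocyte markers. It was -0.17 for oligodendrocyte markers and 0.28 for microglial markers, and 0 genes of these lists passed the test of that difference. Between P1 and P30 in WT, 29.1% of 10800 genes, by 1 probe each, were called higher and 32.8% were called lower.

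The genes most like *Hapln4* and *Tnc* over the 16 arrays were found by Pearson correlation among the 14777 tested probes. For *Hapln4* they were *Vamp1*, *Acot11* and *Pvalb*, each with r = 0.998. For *Tnc* probe ILMN_2463181 they were *Idh1*, *Tubb2b* and *Jpt1*, each with r = 0.997. These values mostly restate the age difference that the arrays share. Within the 8 P1 arrays r with *Hapln4* was 0.19 for *Vamp1*, 0.25 for *Acot11* and -0.06 for *Pvalb*. Within the 8 P30 arrays it was 0.84, 0.68 and 0.84. The *Hapln4* probe was detected on 1 of the 8 P1 arrays, so its values of r at P1 rest mostly on background signal. With *Tnc*, r was 0.34 for *Idh1*, 0.54 for *Tubb2b* and 0.03 for *Jpt1* at P1, and 0.83, 0.88 and 0.83 at P30.

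The question of whether loss of 1 *Mef2c* allele alters the matrix was addressed at P30 and at P1. *Mef2c* itself was read on probes whose position relative to exon 2 is not given in the sources used here. At P30 the difference of *Mef2c*-het from WT was -0.29 on ILMN_2887992 (SE 0.17, exact two-sided permutation p = 0.200) and -0.24 on ILMN_2732465 (SE 0.19, exact two-sided permutation p = 0.371), and at P1 it was 0.07 and -0.01. None of these passed the test, so the probes give no check of the genotype labels. Normalized among the P30 arrays alone, ILMN_2732465 read 9.56 to 9.75 in WT. It read 9.16, 9.71, 8.93 and 9.87 in *Mef2c*-het replicates 3, 5, 6 and 7. For ILMN_2887992 these values were 8.56 to 8.92, and 8.13, 8.39, 8.13 and 8.91, so the genotypes overlapped on both. Probe ILMN_1214950 was detected on 1 WT and 1 *Mef2c*-het array, both at P30, and was not tested. The paper reports lower MEF2C protein in *Mef2c*-het mice, which the arrays do not measure.

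At P30, 0 of the 9 probes tested in the fit of the 8 P30 arrays differed between genotypes (limma, adjusted p under 0.05), where 0.00746% of all 13413 probes, that is 1 probe, did. Differences of *Mef2c*-het from WT ranged from -0.27 to 0.08 on the log2 scale, 7 below 0 and 2 above. The 95% confidence intervals together spanned -0.54 to 0.31, so changes within this span are not shown to be absent. At an unadjusted p under 0.05 there was 1 probe of the 9, beside 2.36% of all probes. The genotypes overlapped for all 9 probes, while 1.75% of all probes did not overlap.

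That probe was ILMN_2670486 of *Bcan*. Normalized among the P30 arrays alone, it read 11.20, 11.28, 11.14 and 11.28 in WT and 11.05, 11.20, 10.58 and 11.00 in *Mef2c*-het mice. Of the *Mef2c*-het arrays 3 were below all WT arrays, 1 was among them, and replicate 6 was the lowest. The difference was -0.27 (SE 0.12, 95% interval -0.54 to -0.0010, limma adjusted p = 0.976; exact two-sided permutation p = 0.0571, where 4 against 4 mice can give no less than 0.0286), and it was -0.14 without *Mef2c*-het replicate 6. The other *Bcan* probe did not pass either. At P30 the summed intensity of the astrocyte markers was 52540–56376 in WT and 51584–54923 in *Mef2c*-het mice, and that of the markers of oligodendrocyte precursors was 12126–16763 and 11798–15574, so both lists overlapped between the genotypes.

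At P1, 0 of 8 tested probes differed between genotypes, and 0% of all 13566 probes did (1.62% at an unadjusted p under 0.05, with 0 of the 8). Differences ranged from -0.16 to 0.16, 5 below 0 and 3 above, and the 95% intervals spanned -0.38 to 0.41. The genotypes overlapped for all 8 probes, while 1.29% of all probes did not overlap.

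The change with age was then compared between the genotypes. It differed for 0 of the 11 probes and for 0% of all probes (limma interaction, adjusted p under 0.05), with 2.96% of all probes and 1 of the 11 at an unadjusted p under 0.05. The difference of the change in *Mef2c*-het mice from that in WT ranged from -0.42 to 0.10. The value farthest from 0 was again that of *Bcan* probe ILMN_2670486, at -0.42 (SE 0.17, 95% interval -0.78 to -0.06, limma adjusted p = 0.998), while *Bcan* probe ILMN_2636745 gave -0.05. Within the arrays of lower background, the log2 difference of *Mef2c*-het from WT for *Bcan* probe ILMN_2670486 at P30 was -0.30. These were WT replicates 2 and 3 and *Mef2c*-het replicates 3, 5 and 6, and replicate 6 was the lowest. Within those of higher background, with 2 WT arrays and 1 *Mef2c*-het array, the difference was -0.21. So few arrays do not show that the difference holds within each background level.

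**Figure D4:**
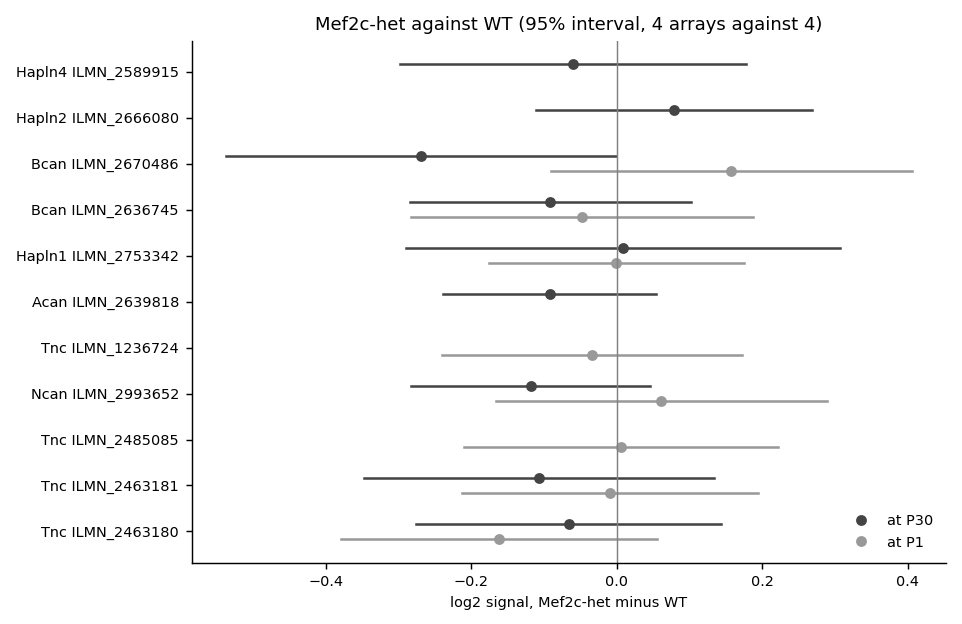
Log2 difference of *Mef2c*-het from WT mice (x axis) for each tested probe of the list (y axis) at P30 (dark) and P1 (grey), with 95% confidence intervals from limma. The P30 values lie between -0.27 and 0.08, and the interval of 1 probe, ILMN_2670486 of *Bcan*, ends just below 0.

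The genes that build, cut and bind this matrix were also compared between the ages. Lists of 95 further genes were drawn up, of which 90 had a probe and 74 were tested by their brightest probe. In WT, 26 of the 74 rose, 24 fell and 24 did not pass, and in *Mef2c*-het mice 26 rose, 26 fell and 22 did not pass. These shares were near those of all 10800 genes given above for WT, and in *Mef2c*-het mice 27.9% of all genes rose and 33% fell. Between the genotypes 0 of 65 passed at P30, where 0.0101% of all genes did, 0 of 67 at P1, and 0 of 74 in the change with age, with 3 of the 65, 1 of the 67 and 1 of the 74 at an unadjusted p under 0.05, beside 2.36%, 1.62% and 2.96% of all probes.

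Of 6 tested genes of hyaluronan synthesis, breakdown and binding, 1 rose and 4 fell in WT, beside 29.1% and 32.8% of all genes. Their median log2 change was -0.54. *Has2*, a hyaluronan synthase, was detected on no P30 array and was at least 2.06-fold lower at P30 in WT and at least 2.25-fold lower in *Mef2c*-het mice. *Hyal2*, a hyaluronidase, fell by 1.30 on the log2 scale in WT (log2 change -1.30, SE 0.072) and changed by -1.28 in *Mef2c*-het mice. Of 14 tested enzymes that make or sulfate chondroitin sulfate chains, 5 rose and 1 fell in WT, beside the same shares of all genes. Their median was 0.14, and none of those that passed changed by more than 1 on the log2 scale.

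Of 16 tested matrix proteases and inhibitors, 4 rose and 7 fell in WT, beside 29.1% and 32.8% of all genes. Their median was -0.06. *Adamts4*, a protease that cleaves lecticans, rose by 1.53 (SE 0.073) and *Timp4*, an inhibitor of metalloproteinases, rose by 2.12 (SE 0.082). *Mmp17* rose by 1.74. Of the metalloproteinases that fell, *Mmp14* changed by -1.40, *Mmp24* by -1.24 and *Mmp9* by -1.03. In *Mef2c*-het mice the changes of these genes were 1.50, 1.97, 1.95, -1.37, -1.39 and -0.84 in the same order.

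Of 19 tested partners and receptors of the lecticans, 8 rose and 6 fell in WT, beside 29.1% and 32.8% of all genes. Their median was 0.04. *Nptx1* and *Nptx2*, pentraxins that gather at synapses, rose by 2.13 (SE 0.13) and 1.71 (SE 0.15) in WT and by 2.04 and 1.34 in *Mef2c*-het mice. The adhesion molecule *Ncam1* rose by 2.06 in WT and 1.90 in *Mef2c*-het mice, *Crtac1* by 1.22 and 1.41, and the Nogo receptor homologue *Rtn4rl1* by 1.37 and 1.22. *Mdk*, which encodes midkine, a growth factor that binds chondroitin sulfate, changed by -2.07 (SE 0.086) in WT and -2.09 in *Mef2c*-het mice.

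Of 19 tested genes of other brain matrix proteins, 8 rose and 6 fell in WT, beside 29.1% and 32.8% of all genes. Their median was 0.21. *Lgi1*, a secreted protein of synapses, rose by 2.22 (SE 0.079), and the testican genes *Spock1* and *Spock3* rose by 1.44 and 1.60. *Matn4* rose by 1.05. *Reln*, which encodes reelin, a guide of migrating neurons, changed by -2.07 (SE 0.084), *Fbln2* by -1.91 and *Agrn* by -1.05. In *Mef2c*-het mice the values were 2.07, 1.34, 1.56, 0.79, -2.27, -2.09 and -1.12 in that order.

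**Figure D5:**
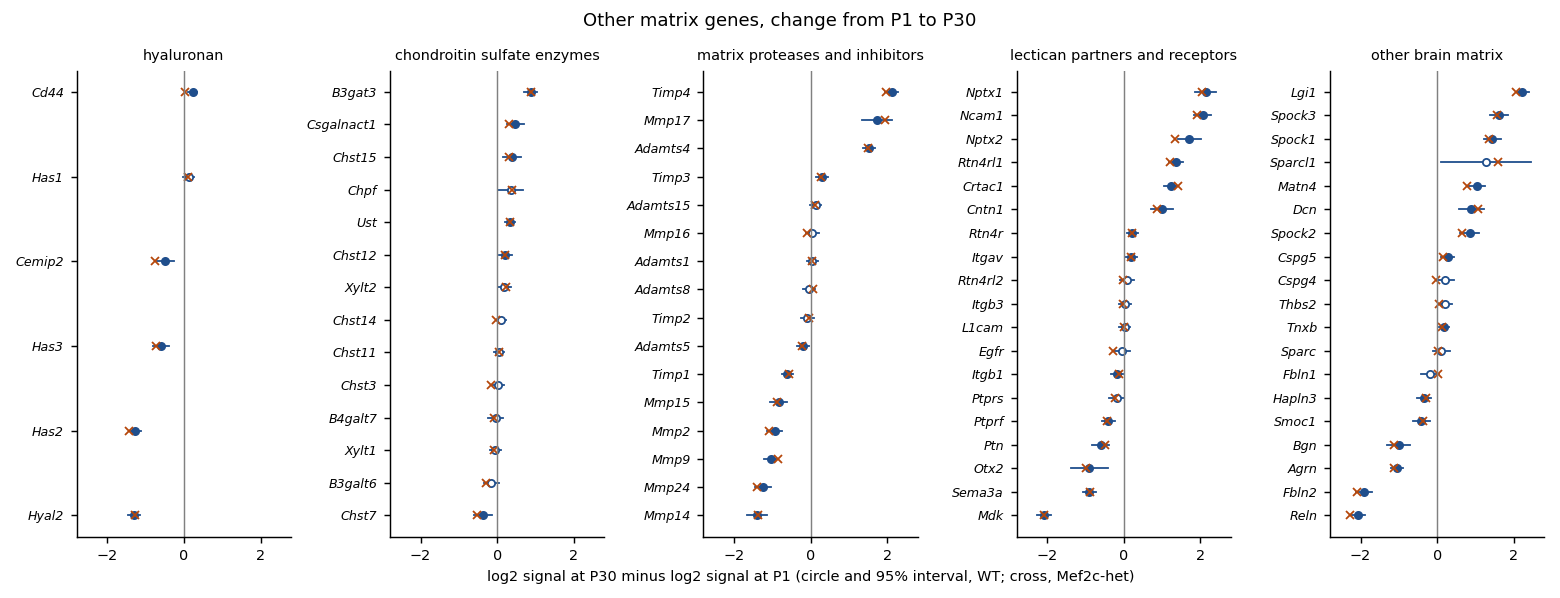
Log2 change from P1 to P30 (x axis) of 74 further matrix genes in 5 lists. Circles are WT with 95% intervals, filled where the adjusted p was under 0.05, and crosses are *Mef2c*-het mice. Values on both sides of 0 occur in every list, with *Lgi1*, *Nptx1* and *Timp4* farthest to the right and *Mdk* and *Reln* farthest to the left.

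Facts of the arrays as a whole bear on these values as follows. The number of probes detected ranged from 12638 to 14150 per array, and the arrays of 1 age correlated with each other at r = 0.983 to 0.997. Within each age the arrays were split into 2 clusters, a number set in advance, by the correlation of their log2 signals. Over both ages the smaller cluster held 5 arrays (replicate 8 of both genotypes at P1, WT replicates 6 and 7 and *Mef2c*-het replicate 7 at P30). These arrays had a higher background than all others and are the arrays of higher background named above. The same 10 probes passed in each comparison of ages when the larger cluster was taken alone. Within the larger and the smaller cluster the WT change was 0.93 and 0.69 for *Bcan* probe ILMN_2670486, -0.93 and -0.79 for *Ncan*, 2.95 and 3.18 for *Hapln4*, and -3.37 and -3.07 for *Tnc* probe ILMN_2463181. By *Xist* and Y-linked probes all P30 mice read as male and 5 of the 8 P1 mice as female. The P1 mice that read as male were WT replicate 8 and *Mef2c*-het replicates 2 and 8. Both replicates 8 were on arrays of higher background, so sex and background overlap at P1. With sex as a covariate 10 of the 11 probes again passed in each genotype, but this fit cannot separate sex from background.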

How the data were processed

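The members and gene lists were chosen with earlier results of these data known. The authors deposited a table of bead intensities that were not normalized, with a detection p-value and a bead count for each probe and array. Hippocampal RNA had been labelled as biotinylated cRNA and hybridized to Illumina mouse beadchips. The submitters' processing notes name lumi and limma, with versions not given in the sources used here. Probes were matched by gene number, accession or symbol to a RefSeq table of GRCm38.p6 (25375 of 25697 probes).

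Intensities were log2-transformed and quantile-normalized, over the 16 arrays for comparisons of ages and over 8 arrays for comparisons of genotypes at 1 age. Background was not subtracted, which shrinks changes of dim probes. Probes with a detection p-value under 0.05 on at least 4 arrays were kept (14777 over all arrays, 13413 at P30, 13566 at P1). Linear models were fitted with limma 3.58.1 in R 4.3.3, with moderated variances, two-sided tests and Benjamini-Hochberg adjustment over all probes kept. Single probes were also tested by exact permutation of the mice in Python 3.11.15. Folds against a group with no detected array are bounds. The number of arrays limits the precision, and the median bead number behind a probe was 36 to 39.

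Every member was described. Of the further matrix genes, those with an absolute log2 change over 1 that passed in WT were named, by the brightest probe of each gene, with *Has2* as a bound. Sets of genes were described by counts and medians. The fits were tested on simulated data with known log2 changes of 1 and 0.5 in size. At an adjusted p under 0.05, 95% and 73% of these were recovered for WT P30 against WT P1. For *Mef2c*-het against WT at P30 the shares were 93% and 66%. Smaller changes, such as the differences of -0.27 to 0.08 of the listed genes at P30, were not simulated. Alternatives were normexp correction, other scalings and filters, 1 probe per gene, trended variances, sex, array cluster and replicate blocks, and leaving out each array.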

Additional observations from a re-analysis of the deposited data

Results flagged for a closer look

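In 68 sets of 4 arrays, 1 array was set against the other 3 by Dixon's ratio of gap to range at its 95% limit, which chance exceeds in about 1 of 20 sets, here 3.4 sets. It was exceeded by 3 probes, all near the detection limit or dim. *Acan* probe ILMN_2639818 in the *Mef2c*-het P1 group was highest in replicate 8 (log2 signal 7.34, next 7.22, ratio 0.905). *Tnr* probe ILMN_1252176 in the *Mef2c*-het P30 group was highest in replicate 6 (7.43, next 7.25, ratio 0.85). *Tnc* probe ILMN_2485085 in the WT P1 group was lowest in replicate 5 (7.81, next 8.16, ratio 0.861).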

How the results depend on the processing

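Every age change that passed the test kept its direction and passed under each alternative run for it, in both genotypes. With 1 probe per gene, 6 of 7 probes passed in WT and 6 of 7 in *Mef2c*-het mice (4 higher and 2 lower in each), because fewer probes were tested. Of all 10800 genes, 6700 passed in WT and 6602 in *Mef2c*-het mice. Leaving out each array in turn gave 10 to 11 probes in WT, 10 to 10 in *Mef2c*-het mice, and 0 to 0 between genotypes at P30, at P1 and in the change with age. Of all probes, 8255 to 8770 passed in WT and 8106 to 8474 in *Mef2c*-het mice when arrays were left out. Without the detection filter 14 probes passed in WT and 12 in *Mef2c*-het mice, beside 8905 and 8695 of all 25697 probes. The member probes added in this way were never detected. *Acan* probe ILMN_2639818 passed in WT only under the 3 alternatives named in the account of aggrecan. After normexp correction, which removes background from the signal, probes at or near background at 1 age gave larger changes: in WT 5.34 for *Hapln4*, 2.49 for *Hapln2*, 1.53 for *Hapln1*, and -4.04, -4.18, -2.64 and -1.63 for *Tnc* probes ILMN_2463181, ILMN_2463180, ILMN_2485085 and ILMN_1236724. Scaling moved the median of all probes by under 0.1. Sex could not be fitted at P30, where all mice read as male.

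Replicate numbers shared by the genotypes were not taken as pairs in the main fits. The deviations of same-numbered mice correlated at 0.090, 0.402 and 0.828 at P1 and at 0.185, -0.532 and 0.708 at P30. So few values cannot settle whether the numbers mark pairs. The highest value at each age came from a number, 8 at P1 and 7 at P30, whose mice were both on arrays of higher background. With the replicate block, 0 probes of the list passed at P30, at P1 and in the change with age, and 0, 3 and 0 of all probes did.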

Other observations

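Markers of other cell types gave these values in WT between P1 and P30, with the count of genes that rose or fell among those tested. Of 10 microglial markers 8 rose and 0 fell, and in *Mef2c*-het mice 10 rose. Of all genes, 29.1% rose and 32.8% fell in WT. Of 6 markers of excitatory neurons 2 rose and 4 fell, while their summed intensity went from 4361–5607 on the WT P1 arrays to 22912–26612 on the WT P30 arrays. Of 6 endothelial and mural markers 1 rose and 2 fell, of 8 meningeal and fibroblast markers 1 rose and 3 fell, of 6 choroid plexus markers 1 rose and 1 fell, of 4 blood markers 0 rose and 2 fell, and of 6 markers of thalamus and striatum 4 rose and 1 fell. The summed intensity of the choroid plexus markers ranged from 1462 to 22483 on the WT P30 arrays and from 2136 to 4778 on the *Mef2c*-het P30 arrays.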
